A study of Mus musculus with 5 samples.

Results

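The antioxidant enzymes described here are 10 genes, Sod1, Sod2, Sod3, Cat, Gpx1, Gpx3, Gpx4, Nqo1, Hmox1 and Txnrd1, out of 18193 genes with a probe set of their own on the array. They were chosen by name, as the main enzymes that remove reactive oxygen species in each compartment of a cell, and every probe set annotated to exactly one of them was taken, which gave 22 probe sets out of 45037 that are not array controls. Expression was measured in whole hearts of 5 untreated female mice on Affymetrix Mouse Genome 430 2.0 arrays. The 3 NZB_W mice, aged 12 to 15 weeks, are the lupus-prone cross of the NZB and NZW strains and had moderate kidney injury by the Austin score (lupus nephritis), and the 2 NZW mice were healthy controls of matched age. Strain and disease cannot be told apart in this comparison, since all NZB_W mice were nephritic and all NZW mice healthy. The arrays are biological replicates by their titles, and precision is limited by having only 5 of them.

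Superoxide dismutases turn superoxide into hydrogen peroxide. Catalase and the glutathione peroxidases then remove the peroxide, the glutathione peroxidases at the cost of reduced glutathione. Thioredoxin reductase keeps thioredoxin reduced with NADPH, Nqo1 reduces quinones in a single step, and heme oxygenase breaks down heme. In heart muscle the mitochondria are the main place where superoxide forms, and Nqo1, Hmox1 and Txnrd1 are textbook targets of the transcription factor NRF2.

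The arrays bore out the tissue label. The log2 level of all 12 cardiomyocyte markers was at least 11.88 on every array, with a summed linear level of 165984 to 169314 in NZB_W hearts and 166805 to 171347 in NZW hearts. NZB_W array 3 stood apart from the other arrays in markers of other cells. Its 19 measured macrophage markers lay at a median of 0.81 above their own means over the 5 arrays on the log2 scale, against 0.02 and -0.02 in the other NZB_W hearts and -0.235 and -0.62 in the NZW hearts. Fibroblast markers as a list were also highest there, with summed linear levels of 11172, 12197 and 21930 in NZB_W hearts, against 14628 and 13375 in NZW hearts. Of that list, Tcf21 (7.69) and Lum (11.22) were not raised there, against 8.14 and 7.70, and 11.58 and 11.43, in NZW hearts. Smooth muscle and pericyte markers summed to 6845, 6984 and 9372 in NZB_W hearts, against 6387 and 6857 in NZW hearts. Rgs5, at 12.37 on NZB_W array 3, was the brightest of them and weighs most in that sum. One array control for RNA quality set NZB_W array 3 apart together with NZW array 2. For this beta-actin control, the 5′ probe set less the 3′ one was -0.88, -0.89 and -1.31 in NZB_W hearts, against -0.89 and -1.19 in NZW hearts. The 5′ control for 18S ribosomal RNA read 9.97, 10.02 and 10.47 in NZB_W hearts, against 10.39 and 12.69 in NZW hearts, so there NZW array 2 alone stood apart. Enzyme results that rest on NZB_W array 3 are given without it as well, and some without both of these arrays. The part of RNA quality and of these cell types in them was not tested.

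None of the 10 enzymes passed the test between the groups. Values are log2 expression per probe set, and differences are NZB_W minus NZW from limma fitted over all probe sets that exceeded their array's median on at least 2 arrays, with a threshold of 0.05 on the Benjamini-Hochberg adjusted p. Of the 22 member probe sets, 20 passed that brightness filter, and each enzyme kept at least 1. Adjusted p-values of the 20 ran from 0.883 to 0.962, and 0 of them had an unadjusted p under 0.05, beside 5 called probe sets (0.0219%) and 5.25% with an unadjusted p under 0.05 among all 22819 tested. With 1 probe set per gene the result was the same. None of the 10 genes was called, with a smallest adjusted p of 0.859 and 0 unadjusted p under 0.05, beside 1 called gene (0.00840%) and 5.55% with an unadjusted p under 0.05 among 11902 tested. The median log2 difference was -0.077 over the 20 member probe sets and -0.013 over all probe sets tested. By gene it was -0.045 over the 10 enzymes and -0.014 over all genes tested.

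Of the 20, 5 had positive and 15 negative differences, while 45.6% of all probe sets tested were positive. Several of the 20 belong to the same gene. With 1 probe set per gene, 4 of the 10 enzymes had a positive and 6 a negative difference, while 45.5% of all genes tested were positive. In 7 of the 20 member probe sets the groups did not overlap, 2 with all NZB_W arrays above both NZW arrays and 5 below. Over all probe sets tested the groups did not overlap in 16.6%, with 6.96% above and 9.66% below. The 7 come from 5 enzymes, since 2 belong to Cat, 2 to Sod2 and 1 each to Sod1, Gpx1 and Hmox1, and probe sets of 1 gene share its transcripts. Counted by gene, the groups did not overlap in 3 of 10 enzymes (Gpx1, Hmox1 and Cat), against 17.4% of all genes tested. For 2 of the 3, Gpx1 and Hmox1, all NZB_W arrays were above (7.60% of all genes), and for Cat they were below (9.83%).

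**Figure D1:**
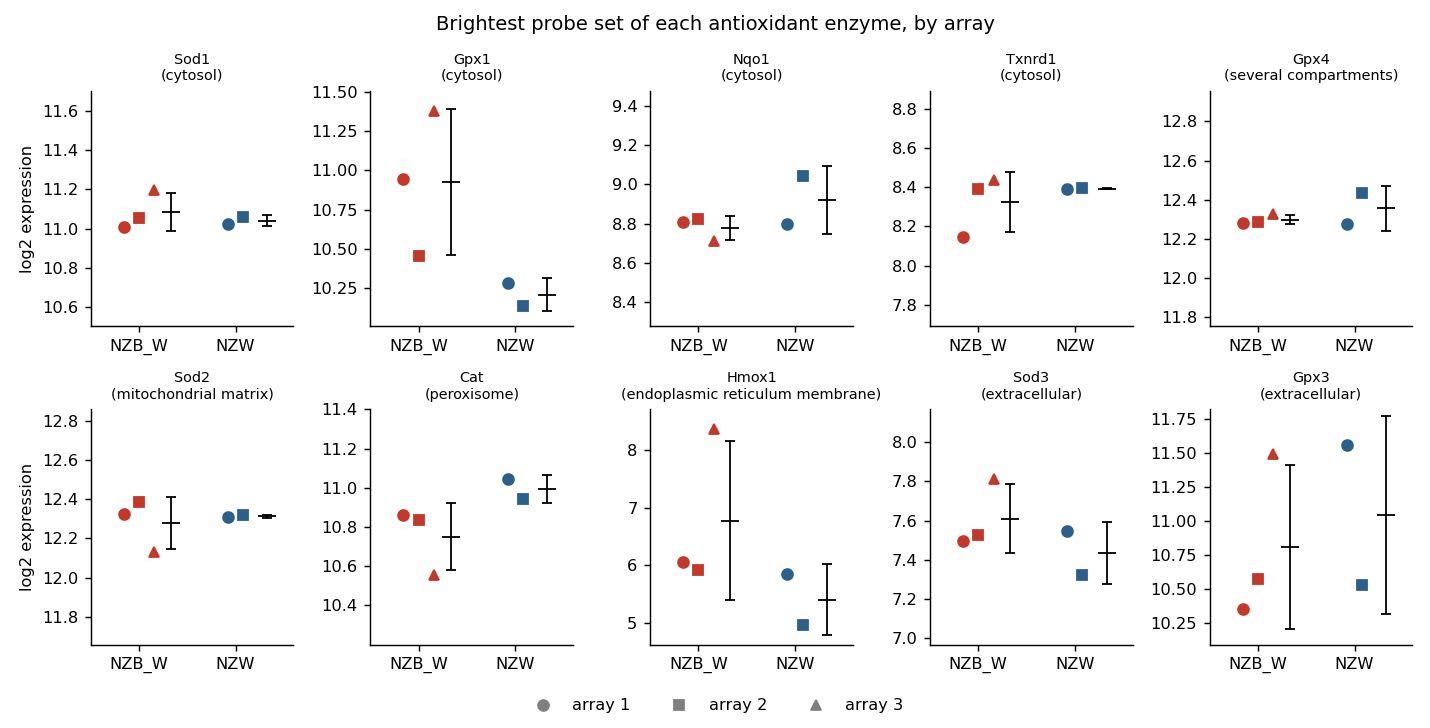
Log2 expression of the brightest probe set of each of the 10 enzymes, with NZB_W arrays on the left of each panel and NZW arrays on the right, and each panel on its own scale. Points are arrays, and bars are the mean and SD of a group (n = 3 and n = 2). The groups are separate for Gpx1, Hmox1 and Cat, and NZB_W array 3 holds the highest Gpx1 and Hmox1 values and the lowest Cat value.

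Gpx1, the selenium-containing glutathione peroxidase of the cytosol, had the smallest unadjusted p of the 10 (0.0589). Its single probe set (1460671_at) read 10.95, 10.45 and 11.38 in NZB_W hearts 1 to 3, against 10.28 and 10.13 in NZW hearts 1 and 2, in the array order kept below. All NZB_W values lay above both NZW values, and the spread was wider among NZB_W hearts. NZB_W hearts averaged 10.93 ± 0.466 (SD, n = 3) and NZW hearts 10.21 ± 0.107 (SD, n = 2). The levels thus differed 1.65-fold, or by 0.72 on the log2 scale (SE 0.29, 95% interval -0.041 to 1.48, limma adjusted p = 0.883). In the fit per gene, 6.18% of all genes tested had a smaller unadjusted p. The difference was 0.49 when NZB_W array 3 was left out, and 0.42 when NZW array 2 was left out as well.

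Gpx1 and catalase are both abundant in red blood cells, and red blood cell transcripts were uneven across these hearts, which had been bled and perfused with saline. Alas2, the erythroid enzyme that starts heme synthesis, read 9.70, 7.90 and 10.11 in NZB_W hearts, against 7.14 and 6.95 in NZW hearts. The 3 measured of 11 listed red blood cell transcripts (Alas2, Slc4a1 and Bpgm) all had positive differences, 0 of them called. Their summed linear levels were 435 to 1876 in NZB_W hearts and 296 to 323 in NZW hearts. Slc4a1 read 7.28, 4.87 and 8.33 in NZB_W hearts, against 4.30 and 3.93 in NZW hearts. It exceeded the array median in NZB_W hearts only, so it passed the filter through that group and its positive sign was built in. The arrays stood in the same order for Gpx1 as for the median of the list, from NZB_W array 3 down to NZW array 2. The part of red blood cells in the Gpx1 difference was not tested. Cat was lowest on NZB_W array 3, the array where these transcripts were highest.

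Cat encodes catalase, the heme enzyme of peroxisomes, and it was lower in NZB_W hearts on both of its probe sets without passing the threshold. The brightest (1416429_a_at) read 10.86, 10.84 and 10.55 in NZB_W hearts, against 11.05 and 10.94 in NZW hearts. The other (1416430_at) read 10.72, 10.60 and 10.10 in NZB_W hearts, against 10.84 and 10.80 in NZW hearts. On both, each NZB_W array lay below both NZW arrays. The log2 differences were -0.24 (SE 0.12, 95% interval -0.56 to 0.075) and -0.34 (SE 0.21, 95% interval -0.89 to 0.20), each with a limma adjusted p of 0.883. They amount to 1.18-fold and 1.27-fold lower levels. Without NZB_W array 3 they were -0.14 and -0.16.

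The start regions of Cat and Gpx1 are printed because these are the enzymes, with Hmox1, whose groups did not overlap on any tested probe set. RefSeq sequence of build GRCm38.p6 from 250 bases before to 50 bases after the annotated start gave 13 windows for 8 of the 10 enzymes, while Hmox1 and Sod3 had no entry. Capitals mark CCAAT and GGGCGG on either strand, the letters of the CCAAT box and the GC box, and no 2 of the marked CCAAT and GGGCGG stretches overlap. The Cat window is chr2:103485104-103485403 on the minus strand and the Gpx1 window chr9:108338830-108339129 on the plus strand, both written 5′ to 3′ along the gene.
Cat: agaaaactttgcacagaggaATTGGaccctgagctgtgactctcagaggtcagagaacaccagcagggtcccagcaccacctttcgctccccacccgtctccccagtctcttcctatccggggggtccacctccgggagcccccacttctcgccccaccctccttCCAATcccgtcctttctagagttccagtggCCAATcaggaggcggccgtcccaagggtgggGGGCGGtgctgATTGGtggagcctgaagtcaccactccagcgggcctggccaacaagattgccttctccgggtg
Gpx1: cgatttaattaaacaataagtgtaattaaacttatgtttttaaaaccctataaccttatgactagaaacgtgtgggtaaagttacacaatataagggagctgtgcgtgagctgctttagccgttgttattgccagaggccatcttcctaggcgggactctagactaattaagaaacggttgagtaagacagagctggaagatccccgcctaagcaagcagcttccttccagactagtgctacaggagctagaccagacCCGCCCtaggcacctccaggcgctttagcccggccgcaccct

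The Cat window holds CCAAT letters 4 times, beginning 230, 85, 55 and 13 bases before the start, and GGGCGG once. The Gpx1 window holds no CCAAT and 1 GGGCGG match. Over all 32851 windows of that length, 37.4% hold CCAAT and 35.7% hold GGGCGG. The core letters of the antioxidant response element bound by NRF2, TGACNNNGC on either strand, are in 2 of the 13 member windows, 1 of Sod1 and 1 of Txnrd1, and in 12.4% of all windows. These matches are letters in a short window and were not tied to binding or to the array values.

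Hmox1, the stress-inducible heme oxygenase of the endoplasmic reticulum membrane, had the largest difference of the 10 and the widest error. Its probe set (1448239_at) read 6.05, 5.91 and 8.36 in NZB_W hearts, against 5.84 and 4.96 in NZW hearts. NZB_W array 3 was far above the other 4 arrays, while NZB_W array 2 exceeded NZW array 1 by only a little. NZB_W hearts averaged 6.77 ± 1.38 (SD, n = 3) and NZW hearts 5.40 ± 0.619 (SD, n = 2). The levels differed 2.59-fold, or by 1.37 on the log2 scale (SE 0.87, 95% interval -0.92 to 3.67, limma adjusted p = 0.883). Without NZB_W array 3 the difference was 0.58, and without that array and NZW array 2 it was 0.14. Its range among the NZB_W hearts, 2.46 on the log2 scale, was exceeded by 0.202% of all genes tested.

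Macrophages that take up red cells are a known source of Hmox1, and macrophage markers were uneven across the same arrays. All 19 measured markers of 20 listed had a positive difference, and 0 were called. Itgam exceeded the array median in NZB_W hearts only (5.09, 4.76 and 5.39, against 3.69 and 3.77 in NZW hearts), so its positive sign was built in by the filter. The groups overlapped for Cd68, Csf1r, Mrc1, Cd163 and Ccr2. Ccr2 was lower on NZB_W array 3 (6.62) than in the other NZB_W hearts (6.77 and 6.78). The summed linear level of the 19 markers was 6952 to 13827 in NZB_W hearts and 4567 to 6248 in NZW hearts. It was highest on NZB_W array 3 and lowest on NZW array 2, as for Hmox1. Ptprc, the pan-leukocyte antigen CD45, read 7.67, 7.62 and 9.10 in NZB_W hearts, against 6.99 and 6.69 in NZW hearts. The part of macrophages in the Hmox1 difference was not tested. In whole-heart RNA, a change in the number of cells of a type and a change in RNA per cell cannot be told apart.

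**Figure D2:**
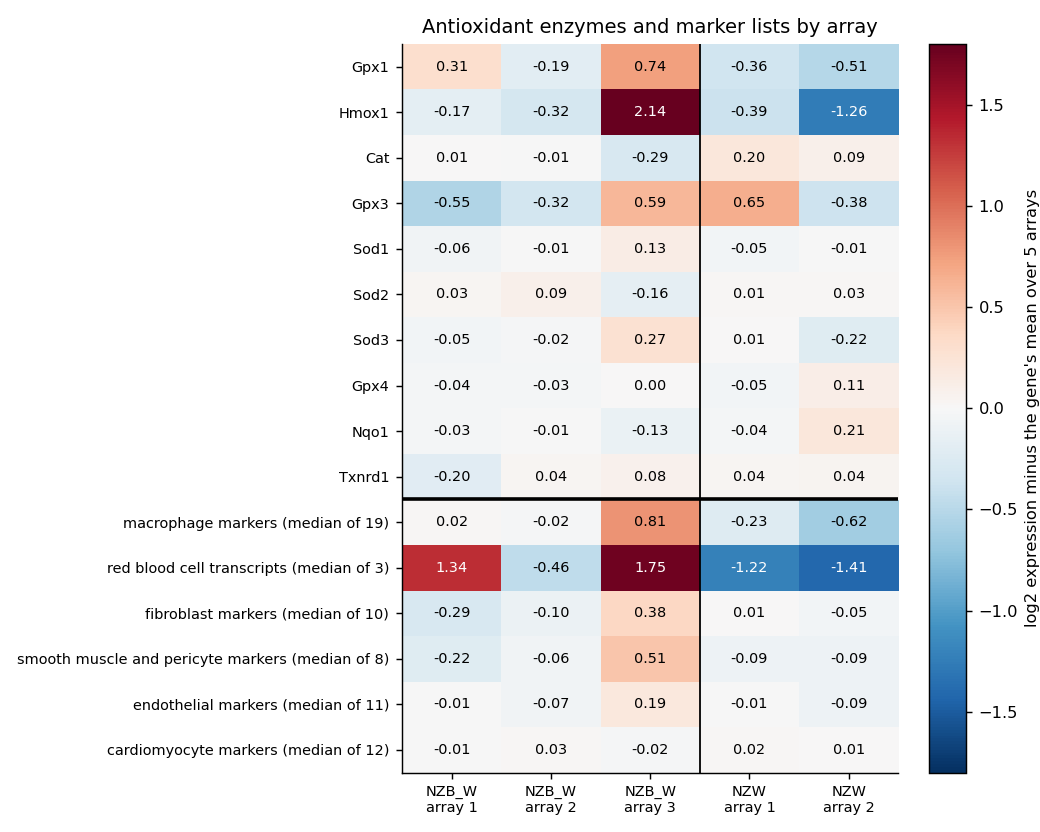
Log2 expression of each enzyme's brightest probe set minus its mean over the 5 arrays (upper rows), and the median of the same quantity over the measured genes of 6 marker lists (lower rows), with NZB_W arrays on the left and NZW arrays on the right. Gpx1, Hmox1, macrophage markers and red blood cell transcripts are highest on NZB_W array 3 and lowest on NZW array 2, while cardiomyocyte markers stay within 0.026 of their mean.

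Sod2, the manganese superoxide dismutase of the mitochondrial matrix, was among the brightest transcripts of the heart and differed little on its brightest probe sets. The brightest (1417193_at) read 12.32, 12.39 and 12.13 in NZB_W hearts, against 12.31 and 12.32 in NZW hearts. Its log2 difference was -0.033 (SE 0.097), and the 95% interval of -0.29 to 0.22 holds no change beyond 1.22-fold. The next (1448610_a_at) differed by -0.12 (SE 0.089), with overlapping groups.

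On the other Sod2 probe sets the NZB_W arrays lay below both NZW arrays. The first of these (1454976_at) read 9.47, 9.67 and 9.41 in NZB_W hearts, against 9.69 and 9.73 in NZW hearts, a difference of -0.20 (SE 0.098). The dimmest (1417194_at) read 6.52, 6.63 and 5.73 in NZB_W hearts, against 6.82 and 6.71 in NZW hearts. It differed by -0.47 (SE 0.30), and by -0.18 without NZB_W array 3. With all arrays, the 4 Sod2 probe sets thus had negative differences, from -0.47 to -0.033, none of which passed. Without NZB_W array 3 the brightest (1417193_at) gave 0.041, while the others stayed negative. With NZW array 2 left out as well, 1417193_at gave 0.047 and 1448610_a_at 0.0074.

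Sod1, the copper and zinc superoxide dismutase of the cytosol, had 5 probe sets, of which 4 passed the filter. The brightest (1459976_s_at) read 11.01, 11.06 and 11.20 in NZB_W hearts, against 11.02 and 11.06 in NZW hearts, a log2 difference of 0.046 (SE 0.081, 95% interval -0.17 to 0.26). Without NZB_W array 3 this difference was -0.0079. The next 2 in brightness differed by -0.046 (SE 0.085) and -0.041 (SE 0.0645), so the groups overlapped on the 3 brightest probe sets. The dimmest tested one (1440222_at) read 4.70, 5.05 and 4.78 in NZB_W hearts, against 5.17 and 5.11 in NZW hearts. There the NZB_W arrays lay below both NZW arrays (-0.30, SE 0.13), at values close to the array medians of 4.62 to 4.68. The probe set that failed the filter (1447761_x_at) lay between 2.13 and 2.46 on all 5 arrays.

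Sod3, the secreted superoxide dismutase bound to the extracellular matrix, was the dismutase with positive differences on all of its probe sets. The brighter (1417633_at) read 7.49, 7.53 and 7.81 in NZB_W hearts, against 7.55 and 7.32 in NZW hearts, and differed by 0.17 (SE 0.14). The dimmer (1417634_at) read 6.05, 6.26 and 6.08 in NZB_W hearts, against 6.09 and 5.91 in NZW hearts, and differed by 0.13 (SE 0.10). The groups overlapped on both, and the first difference was 0.075 without NZB_W array 3, 0.063 without NZW array 2 and -0.037 without both.

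Gpx3, the secreted glutathione peroxidase of plasma, varied more within the groups than between them. Its probe set (1449106_at) read 10.36, 10.58 and 11.49 in NZB_W hearts, against 11.56 and 10.53 in NZW hearts. One heart of each group lay about a log2 unit above the rest, and the groups overlapped. The log2 difference was -0.23 (SE 0.48, 95% interval -1.50 to 1.03). Leaving out NZW array 1 gave 0.28, leaving out NZB_W array 3 gave -0.58, and leaving out NZW array 2 gave -0.75. With NZB_W array 3 and NZW array 2 both left out it was -1.09 (SE 0.15), the lowest of the settings run. Its ranges of 1.14 among NZB_W hearts and 1.03 among NZW hearts were exceeded by 1.92% and 0.580% of all genes tested. Adiponectin (Adipoq), a fat cell transcript, was also highest on NZW array 1, at 6.97 against 3.85 on NZW array 2, but read 3.73, 4.74 and 5.13 in NZB_W hearts. Fabp4, another adipocyte marker, read 13.03, 12.72 and 12.87 in NZB_W hearts, against 12.67 and 12.76 in NZW hearts, and was lowest on NZW array 1. Retn read 5.42, 5.36 and 5.42 in NZB_W hearts, against 6.30 and 5.33 in NZW hearts, and was highest on NZW array 1. These 3 were the tested ones of 8 listed adipocyte markers. The part of fat in the Gpx3 values was not tested.

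Gpx4, the glutathione peroxidase that reduces lipid peroxides within membranes and is found in cytosol, mitochondria and nucleus, was the steadiest enzyme among NZB_W hearts. Its brightest probe set (1451695_a_at) read 12.28, 12.29 and 12.33 in NZB_W hearts, against 12.28 and 12.44 in NZW hearts. The log2 difference was -0.057 (SE 0.075), with a 95% interval of -0.25 to 0.14 that holds no change beyond 1.19-fold. The range of 0.0445 among NZB_W hearts was exceeded by 92.1% of all genes tested. The second probe set (1456193_x_at) differed by -0.086 (SE 0.098). Both differences were positive without NZW array 2, at 0.024 and 0.040.

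The NRF2 targets Nqo1 and Txnrd1 had negative differences, unlike Hmox1. Nqo1 (1423627_at) read 8.81, 8.82 and 8.71 in NZB_W hearts, against 8.80 and 9.04 in NZW hearts, a log2 difference of -0.14 (SE 0.0997, 95% interval -0.40 to 0.12). NZW array 2 was the highest and NZB_W array 3 the lowest, the reverse of their places for Hmox1, and the difference was -0.017 without NZW array 2. Txnrd1, the cytosolic thioredoxin reductase, read 8.15, 8.39 and 8.44 in NZB_W hearts on its brightest probe set (1421529_a_at), against 8.39 and 8.39 in NZW hearts. It differed by -0.068 (SE 0.11), and by 0.021 without NZB_W array 1. A dimmer probe set (1424486_a_at) differed by -0.11 (SE 0.20), or by 0.069 without NZB_W array 3, whose value of 5.02 was the lowest there. The probe set that failed the filter (1424487_x_at) lay between 3.18 and 3.78.

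**Figure D3:**
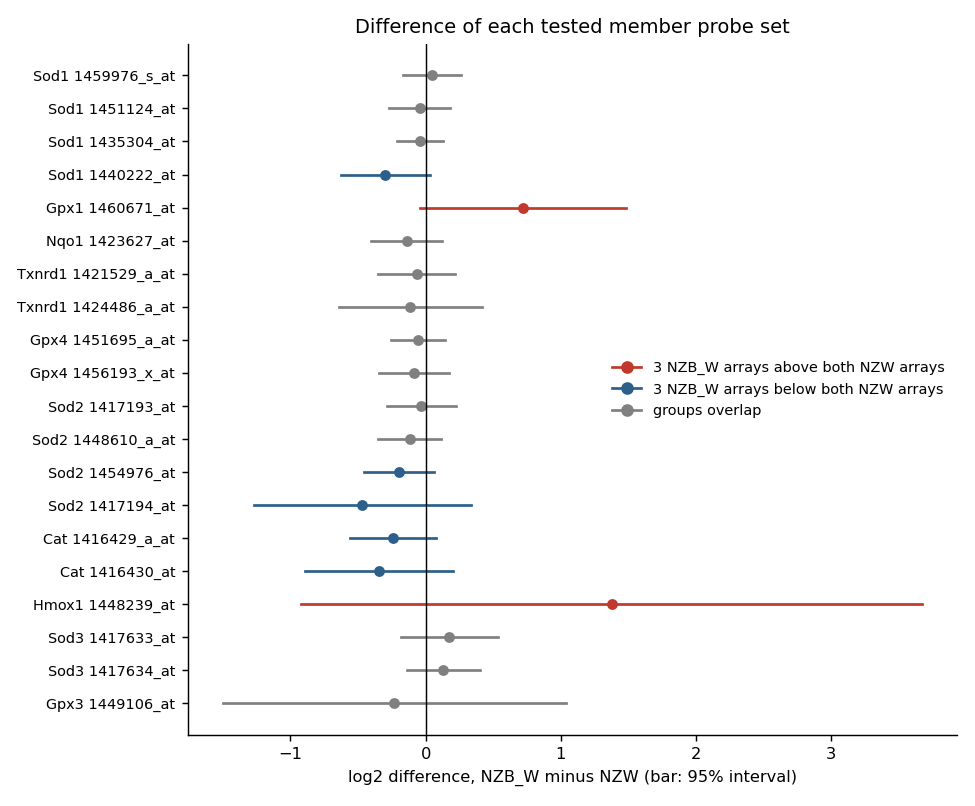
Log2 difference (NZB_W minus NZW) of each of the 20 tested member probe sets, with its 95% interval from limma. Every interval holds 0, and the intervals of Hmox1 and Gpx3 are the widest.

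By compartment, the cytosolic enzymes held the positive difference of Gpx1 beside differences of -0.14 to 0.046 in Sod1, Nqo1 and Txnrd1 on their brightest probe sets. The mitochondrial Sod2 and the peroxisomal Cat, 1 gene each, had negative differences on all 6 of their probe sets. Without NZB_W array 3 the brightest Sod2 probe set was at 0.041, while the other probe sets of Sod2 and Cat kept their sign. The extracellular pair differed in sign between Sod3 and Gpx3. No difference between compartments was tested, and each compartment holds 1 to 4 of the enzymes.

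**Figure D4:**
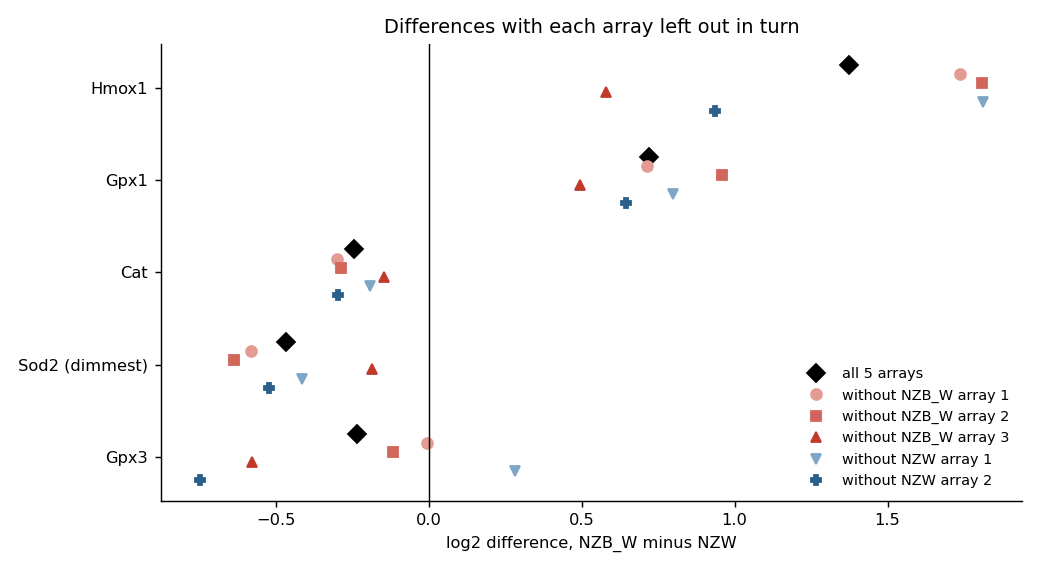
Log2 difference (NZB_W minus NZW) of Hmox1, Gpx1, Cat, the dimmest Sod2 probe set and Gpx3 with all 5 arrays (black) and with each array left out in turn. Hmox1 is at 0.58 without NZB_W array 3, Gpx1 stays between 0.49 and 0.96, and Gpx3 changes sign without NZW array 1.

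Around these enzymes, 13 lists of other antioxidant and redox genes held 96 genes, of which 85 were tested and 0 were called in either direction. With 1 probe set per gene, their smallest limma adjusted p was 0.699. An unadjusted p under 0.05 was found in 3 of the 85, against 5.55% of all genes. In the fit over probe sets, a dimmer Prdx2 probe set had a limma adjusted p of 0.177. Of the 85, 32 had a positive and 53 a negative difference, with a median of -0.026 against -0.014 over all genes tested, where 45.5% were positive. The groups did not overlap in 15 of them, 7 above and 8 below, against 17.4% of all genes.

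The regulators of the NRF2 pathway gave 0 calls among 9 genes (median -0.026). Nfe2l2, which encodes NRF2 itself, read 9.44, 9.63 and 9.15 in NZB_W hearts, against 9.67 and 9.73 in NZW hearts, which gives -0.29 (SE 0.16, limma adjusted p = 0.859). The groups did not overlap, and the difference was -0.17 without NZB_W array 3. Bach1, the repressor of Hmox1, differed by -0.23 (SE 0.13) on its brightest probe set and by 0.39 (SE 0.17) on the other. Maff, a small MAF partner of NRF2, differed by 0.27 (SE 0.14). Among 13 tested NRF2 targets outside the members, 7 had positive and 6 negative differences (median 0.0041). Cbr1, a carbonyl reductase, read 7.25, 7.35 and 7.04 in NZB_W hearts, against 6.78 and 6.68 in NZW hearts (0.48, SE 0.11, limma adjusted p = 0.741), and Me1, the NADPH-forming malic enzyme, differed by -0.23 (SE 0.13).

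Heme breakdown and iron storage gave 0 calls among 7 genes. Blvrb, a biliverdin reductase that is abundant in red cells, had the smallest p of all 85 genes in the fit per gene. It read 7.31, 7.35 and 7.17 in NZB_W hearts, against 7.71 and 7.63 in NZW hearts, which gives -0.40 (SE 0.082, limma adjusted p = 0.699), the opposite sign to Hmox1 and Alas2. Fech, which inserts iron into heme, differed by 0.31 (SE 0.13) on its brightest probe set and by -0.19 and 0.19 on its other tested probe sets. Hmox2, the constitutive heme oxygenase, differed by 0.095 (SE 0.059).

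Glutathione and thioredoxin genes gave 0 calls. Of 8 genes of glutathione synthesis and recycling, 2 had positive differences (median -0.040), with glutathione reductase Gsr at 0.18 (SE 0.11), the gamma-glutamyltransferase Ggt5 at 0.093 (SE 0.072) and glutathione synthetase Gss at -0.10 (SE 0.080). All 3 tested glutathione peroxidases outside the members had negative differences, from -0.13 in Gpx8 to -0.0033 in Gpx7, with Gpx2 at -0.046. Of 9 thioredoxin and glutaredoxin genes, 7 had negative differences (median -0.075). Glrx2, the mitochondrial glutaredoxin, read 8.50, 8.57 and 8.62 in NZB_W hearts, against 8.66 and 8.93 in NZW hearts (-0.24, SE 0.10), and its other tested probe sets differed by -0.43 and -0.21. Glrx differed by -0.11 (SE 0.078) and the mitochondrial thioredoxin reductase Txnrd2 by -0.14 (SE 0.12), or by -0.044 without NZB_W array 3.

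Peroxiredoxins, which reduce peroxide through thioredoxin, gave 0 calls among 4 tested genes. Prdx2, abundant in red cells, differed by -0.11 (SE 0.086) on its brightest probe set and by 0.65 (SE 0.056) on its other one (1430979_a_at), where the limma adjusted p over probe sets was 0.177. These probe sets of 1 gene therefore differ in sign. Srxn1, which restores oxidized peroxiredoxins, differed by 0.034 (SE 0.074) and Prdx4, of the endoplasmic reticulum, by 0.032 (SE 0.082). The other probe sets of Srxn1 gave -0.030 and 0.12, and those of Prdx4 gave -0.033 and 0.0087.

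All 5 tested genes of selenoprotein synthesis had negative differences (median -0.11), and 0 were called. This machinery builds selenocysteine into Gpx1, Gpx3, Gpx4 and Txnrd1. Sephs2, the selenophosphate synthetase, differed by -0.078 (SE 0.058), Pstk by -0.19 (SE 0.16) and the elongation factor Eefsec by -0.11 (SE 0.10). Without NZB_W array 3, Pstk gave -0.060 and Eefsec -0.030. Of 9 other selenoproteins, 4 had positive differences (median -0.013). Selenow differed by -0.20 (SE 0.15) on its brightest probe set and by 0.45 (SE 0.23) on its other one, Msrb1 by -0.12 (SE 0.10) and Selenok by 0.081 (SE 0.068), with -0.046 (SE 0.14) on the other Selenok probe set.

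Of 7 regulators of mitochondrial and peroxide defence (FOXO factors, PGC-1 coactivators and sirtuins), 0 were called (median -0.050). Sirt3, the mitochondrial deacetylase that acts on the Sod2 protein, read 8.22, 8.37 and 7.91 in NZB_W hearts, against 7.83 and 7.75 in NZW hearts (0.38, SE 0.15, limma adjusted p = 0.859). Ppargc1a, the coactivator PGC-1 alpha, read 9.97, 10.04 and 9.73 in NZB_W hearts, against 10.37 and 10.09 in NZW hearts (-0.32, SE 0.14), and its other 4 tested probe sets differed by -0.87 to -0.19. Foxo1 differed by 0.17 (SE 0.062) on its brightest probe set and by -0.062 and 0.32 on the others.

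The remaining lists gave 0 calls as well. Of 7 NADPH-supplying enzymes, 3 had positive differences (median -0.031), with Idh1 at -0.17 (SE 0.093) and the transketolase Tkt at 0.21 (SE 0.16). A second Idh1 probe set gave -0.36 (SE 0.0902, limma adjusted p over probe sets = 0.742), and Tkt was at 0.085 without NZB_W array 3. Of 5 copper delivery genes, 4 had positive differences (median 0.079), with Cox17 at 0.13 (SE 0.087), the copper pump Atp7a at 0.28 (SE 0.20) and the copper importer Slc31a1 at 0.079 (SE 0.080). Without NZB_W array 3, Cox17 was at 0.072 and Atp7a at 0.10, and a second Slc31a1 probe set gave -0.0046. Among 8 tested methionine sulfoxide reductases and other protectants (median -0.021), the metallothioneins Mt1 and Mt2, which bind zinc and copper, were higher in NZB_W hearts without passing. Mt1 read 11.40, 11.53 and 11.62 in NZB_W hearts, against 11.33 and 11.22 in NZW hearts (0.24, SE 0.093). Mt2 read 9.26, 9.21 and 9.99 in NZB_W hearts, against 9.08 and 8.85 in NZW hearts (0.52, SE 0.27), and differed by 0.27 without NZB_W array 3. The groups did not overlap for either metallothionein, and the methionine sulfoxide reductase Msra differed by -0.24 (SE 0.14).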

How the data were processed

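The authors deposited 1 log2 expression value per probe set and array, from 1.91 to 14.3. RMA, GCRMA and Partek are listed in the submitters' processing notes, with neither version nor role, so the values may come from RMA or from GCRMA. GCRMA removes more of a dim signal than RMA, which can change the fold of dim probe sets. No detection calls were used, and each probe set was set against its array's median. RNA was hybridized from 6 µg per heart, per the labels' protocols. All 5 value columns belong to samples.

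Sample titles gave the groups and replicate numbers. Of 45101 probe sets, 64 are array controls and were left out, 34945 carry 1 gene symbol (platform annotation, names checked through Entrez identifiers against RefSeq GRCm38.p6), 932 several and 9160 none. The deposited values were tested with lmFit and eBayes of limma 3.58.1 under R 4.3.3 (two-sided tests, group the only term, 1.61 prior and 3 residual degrees of freedom) over 22819 probe sets above their array's median on at least 2 arrays. A further fit took each gene's probe set with the highest mean (11902 genes, 1.69 prior degrees of freedom). Pathway genes were fitted per gene, and their other probe sets in the probe set fit. SE is limma's moderated standard error. The fits were tested on simulated data.

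The members and lists were chosen with earlier results of these data known. All members are named, with up to 3 genes of each of the 13 redox lists by smallest p. Other probe sets of those genes are given where their sign differs and for some others. The marker genes printed with values were chosen after their values were seen. Listed genes not tested were dim or shared their probe sets with another symbol. Alternatives covered normalization, the filter, the variance model, array weights, left-out arrays, the replicate block, the threshold and the choice of probe set. The replicate numbers mark no shared litter, batch or day in the labels, so the arrays were not paired. Deviations of same-numbered arrays correlated at -0.26 and 0.10 over genes. The deviations of the NZW arrays mirror each other, as there are only 2, so these correlations cannot show whether pairs exist. Figures were drawn with matplotlib 3.10.9.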

Additional observations from a re-analysis of the deposited data

How the results depend on the processing

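No alternative gave a call: 0 of the member probe sets, 0 of the member genes and 0 of the redox-list genes passed under any of them. The alternatives were quantile normalization, median centring, no filter or one at the upper quartile, trended robust variance, array weights and an adjusted threshold of 0.1. Others left out each array, or NZB_W array 3 and NZW array 2 together, used the replicate block or, per gene, other choices of probe set. Counted over the result sets, this made 46 combinations of a set with an alternative. Fits without an NZW array have a single array in that group, so their lack of calls says little. Over single genes and probe sets under each alternative, 52 values changed sign and 957 kept it on the same side of the threshold. The 957 are no measure of stability. Changes of filter, variance model and threshold leave a difference as it is, so there the sign was kept by construction. Members were counted by probe set and again by gene, and a change of sign to a value very near 0 counted as kept. Of list medians, 37 changed sign or moved by 0.1 or more on the log2 scale and 171 did neither. Of the 37 redox genes named, 15 moved by over 1.5 times without NZB_W array 3. The cause of the sign changes was not tested. Depth is limited by signal: the dim Sod1 and Txnrd1 probe sets that failed the filter carry no test, and fold sizes of dim probe sets depend on the background method, which is unknown.

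With the replicate block, which uses only arrays numbered 1 and 2 of each group, the brightest Sod1 probe set gave -0.0079, Sod2 1417193_at 0.041 and Txnrd1 1424486_a_at 0.069, and no call changed. The labels give no pairing of the arrays, so the block is no paired result.

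Leaving out 1 array at a time, the log2 differences that crossed 0 ran from -0.0079 to 0.085 (Sod1 1459976_s_at), -0.098 to 0.0060 (Sod1 1451124_at), -0.12 to 0.021 (Txnrd1 1421529_a_at), -0.22 to 0.069 (Txnrd1 1424486_a_at), -0.14 to 0.024 and -0.21 to 0.040 (Gpx4 1451695_a_at and 1456193_x_at), -0.086 to 0.041 (Sod2 1417193_at) and -0.75 to 0.28 (Gpx3). Among the redox genes named in the text they ran from -0.22 to 0.23 (Gpx7), -0.041 to 0.11 (Prdx4), -0.014 to 0.058 (Srxn1), -0.0078 to 0.17 (pathway gene Slc31a1) and -0.26 to 0.025 (Msrb1).

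With both NZB_W array 3 and NZW array 2 left out, the sign turned for Sod1 1451124_at (0.017), Nqo1 (0.018), Txnrd1 1424486_a_at (0.069), Gpx4 1451695_a_at (0.0099) and 1456193_x_at (0.031), Sod2 1417193_at (0.047) and 1448610_a_at (0.0074), Sod3 1417633_at (-0.037), Prdx4 (-0.050), Txnrd2 (0.025) and Tkt (-0.054). Array weights turned Sod1 1451124_at (0.016), Txnrd1 1424486_a_at (0.0055) and Sod2 1417193_at (0.041 over probe sets, 0.040 over genes). Averaging a gene's probe sets turned Sod1 (-0.062), Prdx2 (0.27), Prdx4 (-0.011), Bach1 (0.078) and Selenow (0.13). When probe sets with the suffixes _s_at, _x_at and _a_at were left out, Sod1 gave -0.046, Fech -0.19, Foxo1 -0.062 and Selenow 0.45.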
